A study of Mus musculus with 4 samples.

Results

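The genes described here are 9 genes of MHC class I antigen presentation and of the interferon response, *H2-K1*, *H2-D1*, *B2m*, *Tap1*, *Irf1*, *Ifit1*, *Ifit3*, *Isg15* and *Bst2*, out of 56748 gene IDs in the count files. They were chosen by name and not by their values, although with earlier results of these data known, and all 9 were found by Ensembl ID. Reads were obtained for 8 of them, and 5 (*H2-K1*, *H2-D1*, *B2m*, *Irf1* and *Bst2*) had enough reads for a test of knockdown against scrambled. The question was whether the shRNA knockdown line differs from its control line in these genes. Total RNA of C2C12 myoblasts, an established mouse muscle precursor line of wild-type genotype, was read directly, without a copy into cDNA, by nanopore sequencing. The 2 scrambled libraries came from cells carrying a scrambled control shRNA, and the 2 knockdown libraries from cells carrying a mixture of shRNAs against *Hnrnpl*, which encodes the RNA-binding protein hnRNP L. In both groups the shRNA plasmid also expressed eGFP and the stable cells were selected with puromycin. The labels number the libraries of each group 1 and 2. Batch 1 and batch 2 here mean these replicate numbers, so each holds 1 scrambled and 1 knockdown library. Values of single libraries are given in the order scrambled 1, scrambled 2, knockdown 1, knockdown 2. Where 1 library was left out of a fit, its group held 1 library and the spread came from the other group alone. Both libraries of a group are passages of 1 selected stable line, so p-values measure only the spread between passages, and an effect of the knockdown cannot be told apart from another difference between the lines. Both lines carry an shRNA, and no library of cells without a plasmid is among the 4, so a response present in both lines would not appear in this comparison.

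MHC class I molecules present peptides from inside the cell at its surface. A heavy chain, encoded in the mouse by *H2-K1* or *H2-D1*, folds with beta-2 microglobulin (*B2m*) around a peptide that the TAP transporter (*Tap1* and *Tap2*) moves into the endoplasmic reticulum, where tapasin (*Tapbp*) holds the parts together. Interferons, released by cells that detect foreign nucleic acid, act through receptors, JAK kinases and STAT proteins on promoters with an interferon response element or a STAT site, and switch on antiviral genes such as *Ifit1*, *Ifit3*, *Isg15* and *Bst2*, the transcription factor *Irf1* and the class I genes. RNA introduced into cells, short hairpins included, is known as a possible trigger of this response. Skeletal muscle cells at rest express little class I.

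Short motifs that class I and interferon-driven genes are known for were searched in the promoters and found in 8 of the 9, all but that of *Tap1*. The stretches that hold them are shown for 7 genes, the heavy chain genes first. They are taken from the RefSeq promoter table, in which each window runs from 250 bases before to 50 bases after a RefSeq start site and the 9 members have 11 windows, and were located by exact match in GRCm39. RefSeq start sites differ from the GENCODE gene bounds given further on, so the stretches of *H2-D1* and *B2m* lie inside those bounds. Each is written 5′ to 3′ on the strand of its gene, with motif matches on either strand in capitals.

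The pair of heavy chain promoters has a kB-like site (GGGNNTTCC) followed by an X2-like box (TGACGC). *H2-K1* lies at chr17:34219327-34219442 on the reverse strand and *H2-D1* at chr17:35481889-35482004 on the forward strand.
H2-K1: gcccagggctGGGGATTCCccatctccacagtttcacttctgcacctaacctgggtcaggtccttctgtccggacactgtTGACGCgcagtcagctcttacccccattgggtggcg
H2-D1: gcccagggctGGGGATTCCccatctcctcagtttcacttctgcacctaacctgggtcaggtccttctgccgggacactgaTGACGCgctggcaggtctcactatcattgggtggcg
Of the 116 bases of these stretches, 105 are identical (90.5%).

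The interferon response element core (GAAANNGAA) was searched on both strands and is the motif marked in the next 4 genes. They lie at chr2:121978017-121978049 (*B2m*, forward strand), chr19:34618168-34618225 (*Ifit1*, forward), chr19:34560762-34560847 (*Ifit3*, forward) and chr4:156285321-156285365 (*Isg15*, reverse). Several of the matches overlap each other.
B2m: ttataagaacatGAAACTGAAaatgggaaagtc
Ifit1: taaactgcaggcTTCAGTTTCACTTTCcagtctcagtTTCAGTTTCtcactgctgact
Ifit3: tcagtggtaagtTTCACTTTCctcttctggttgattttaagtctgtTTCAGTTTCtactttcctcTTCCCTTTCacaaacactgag
Isg15: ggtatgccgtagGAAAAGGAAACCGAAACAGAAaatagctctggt
The *Ifit3* stretch also matches exactly at chr19:34585158-34585243, so it is not unique in the genome.

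In *Bst2*, at chr8:71990220-71990258 on the reverse strand, a kB-like site runs into a STAT site (TTCNNNGAA) and response element cores, all in capitals.
Bst2: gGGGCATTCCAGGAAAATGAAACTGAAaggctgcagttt
Of the 27025 genes in that table, 9.76% had GAAANNGAA in at least 1 window, 9.55% had TTCNNNGAA, 6.58% had GGGNNTTCC and 8.37% had TGACGC. Counted in the same way, GAAANNGAA was found for 5 of the 9 members (*B2m*, *Ifit1*, *Ifit3*, *Isg15* and *Bst2*), TTCNNNGAA for 2 (*Irf1* and *Bst2*), GGGNNTTCC for 3 (*H2-K1*, *H2-D1* and *Bst2*) and TGACGC for 2 (*H2-K1* and *H2-D1*). A match describes the letters of the window only. Only exact matches were counted, so a gene without a match is not shown to lack an interferon response element. A run such as cagtttcacttct, which both heavy chain stretches hold, was therefore left unmarked.

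The libraries held 1229424 to 1676911 reads counted on genes, and 42.2% to 43.5% of all reads were assigned to none, with 22.7% to 23.8% of all reads set aside for low mapping quality. Over the 8670 genes tested, the median log2 fold change was -0.001. A call required an adjusted p under 0.05, a log2 fold change beyond 0.5 and a mean normalized count above 10, and 481 genes (5.55%) were called, 202 higher (2.33%) and 279 lower (3.22%). Before adjustment, 21.8% of the tested genes had a p under 0.05, and in 52.4% the groups did not overlap. The targeted gene *Hnrnpl* had 358 and 656 reads in the scrambled libraries against 242 and 258 in the knockdown libraries, and its log2 fold change was -0.78 (SE 0.17, adjusted p = 0.0112 by the edgeR quasi-likelihood test with Benjamini-Hochberg adjustment). It was -0.48 (adjusted p = 0.194) without scrambled 2, which had the highest count, and -0.62 (adjusted p = 0.15) without knockdown 1. *Hnrnpl* was not called with the parametric DESeq2 fits (adjusted p = 0.0567 and 0.067). Of 7 myoblast markers, 4 were tested and 2 were called, both lower, beside 3.22% of all tested genes called lower. *Myf5* had 157, 190, 158 and 113 reads in scrambled 1, scrambled 2, knockdown 1 and knockdown 2. *Vcam1*, the only 1 of the 4 above 0, had 13, 18, 20 and 13 reads (log2 fold change 0.29, adjusted p = 0.707 by edgeR). Its groups did not overlap, but scrambled 2 and knockdown 2 were nearly equal at 15.15 and 15.21 normalized counts. *Myod1* was listed with 1 read over all libraries and *Myog* with none. *Cdh15*, the cadherin of muscle precursors, had 113, 152, 25 and 14 reads and was called lower, with a log2 fold change of -2.55 (adjusted p = 2.03e-06). The intermediate filament gene *Des* (373, 571, 309 and 242 reads) was also called lower (adjusted p = 0.0308), but not with the replicate block (0.0526) nor without scrambled 2, knockdown 1 or knockdown 2 (0.097 to 0.297), nor with the parametric DESeq2 fits (0.208 and 0.234). The collagen gene *Col1a1* was also listed at 0 in each library, although *Col3a1* had 347 to 775 reads, and *Gapdh* had 25 to 35 reads where *Actb* had 7807 to 10669 (values chosen after they were seen), so a gene listed at 0 in these files is not thereby shown to be silent. Of 11 macrophage and leukocyte markers, 8 had no read in any library, among them *Ptprc*, *Adgre1* and *Itgam*. The list summed to 4, 3, 4 and 7 reads in library order. In CPM (counts scaled to the same library total) these were 1.79 to 2.88 in scrambled and 2.91 to 5.69 in knockdown. *Mgl2*, a lectin gene of macrophages outside that list and named after its values were seen, had 0, 0, 50 and 30 reads. Endothelial markers summed to 0, 0, 1 and 1 reads, or 0 CPM in scrambled and 0.728 to 0.813 in knockdown, with *Pecam1* at 0 in each library. The sums of both lists rest on too few reads to compare the groups. Fibroblast markers, 3 of 6 with reads, summed to 565, 435, 478 and 286 CPM in library order, and the groups overlapped. *Col3a1*, the only one tested, had a log2 fold change of -0.42 (adjusted p = 0.186 by edgeR). It was at -0.63 without scrambled 2 and at -0.80 without knockdown 1, against -0.20 without scrambled 1 and -0.13 without knockdown 2. The part of other cell types in the results was not tested.

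In the knockdown line the heavy chain gene *H2-K1* fell by 56.1%, and it was the only member called, while *H2-D1* and *B2m* were not called and had intervals that included 0. *H2-K1* (ENSMUSG00000061232.17, GRCm39 chr17:34214987-34219321, reverse strand) had 74 and 129 reads in the scrambled libraries against 42 and 34 in the knockdown libraries. In normalized counts, which are reads scaled by the TMM method to the mean library size, these were 77.5 and 109 against 41.9 and 39.8. Both scrambled libraries lay above both knockdown libraries, with means of 93.1 ± 21.97 (SD, n = 2) and 40.8 ± 1.49 (SD, n = 2). The log2 fold change of *H2-K1* was -1.20 (SE 0.23, 95% interval -1.68 to -0.72, adjusted p = 0.00329 by the edgeR quasi-likelihood test). Within batch 1 the log2 ratio was -0.89 and within batch 2 it was -1.45, so both batches had the same direction. When each library was left out in turn, the log2 fold change ran from -1.41 to -0.93. Over 12 other settings the adjusted p lay between 2.83e-05 and 0.11. In 2 of these settings *H2-K1* was no longer called, both with the parametric fit of DESeq2, by the Wald test (adjusted p = 0.0961) or by the likelihood-ratio test (0.11).

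**Figure D1:**
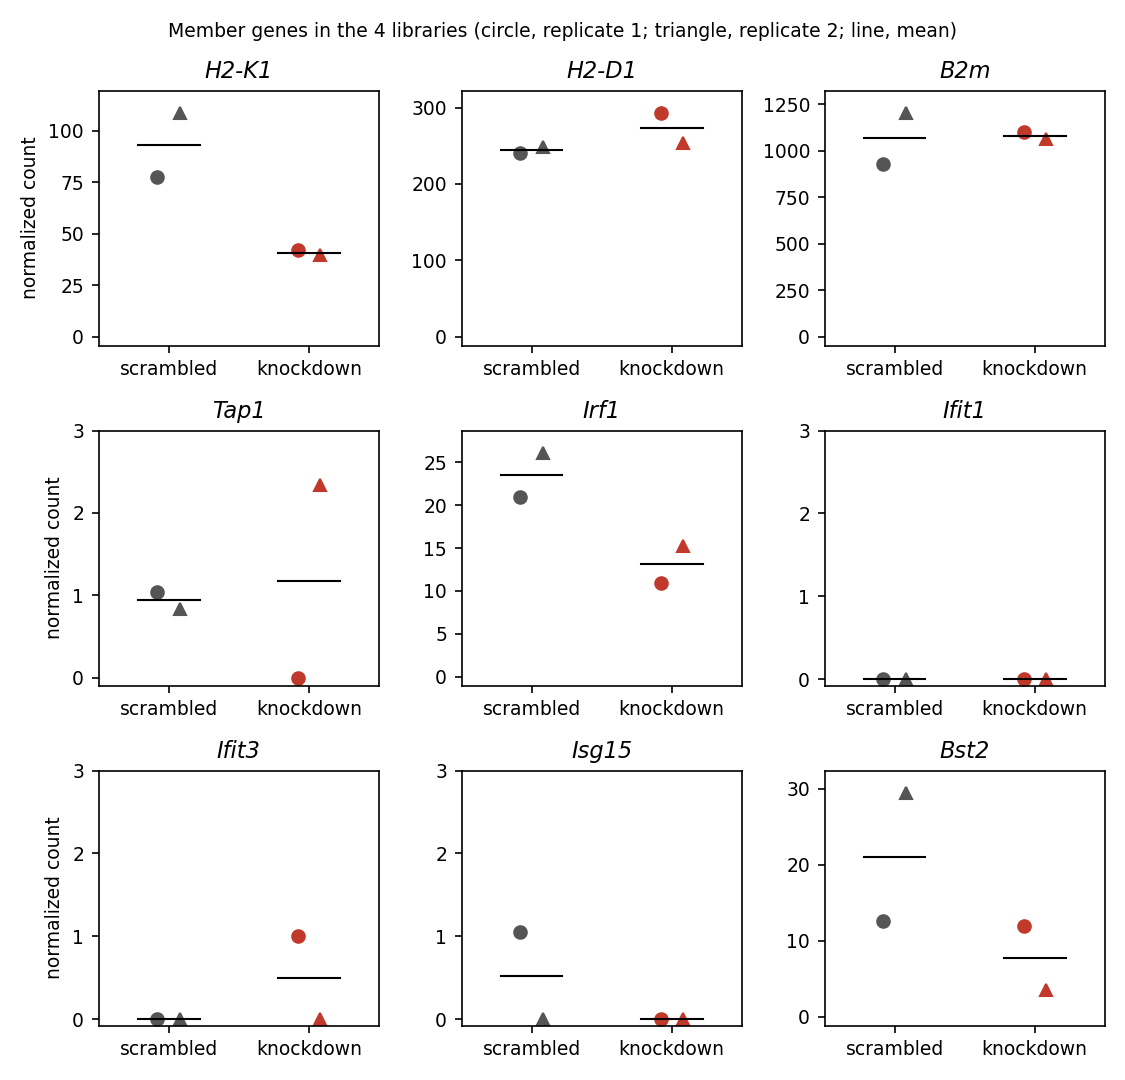
Normalized counts (reads scaled to the mean library size, y axis from 0) of the 9 member genes in the 2 scrambled and 2 knockdown libraries, with circles for replicate 1, triangles for replicate 2 and a line at the mean. The knockdown points of *H2-K1*, 41.9 and 39.8, lie below both scrambled points, those of *B2m* lie between the scrambled points, and *Tap1*, *Ifit1*, *Ifit3* and *Isg15* have at most 2 reads in a library.

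*H2-D1* (ENSMUSG00000073411.13, chr17:35481691-35486475, forward strand) had 230 and 295 reads in the scrambled libraries against 294 and 217 in the knockdown libraries, or 241 and 248 normalized counts against 293 and 254. Both knockdown values were above the scrambled values, and those of knockdown 2 and scrambled 2 were close. The log2 fold change was 0.16 (95% interval -0.15 to 0.47, adjusted p = 0.565 by edgeR), and it turned to -0.03 when the median of the chromosome, 0.20 for chromosome 17, was removed. With 1 library left out, *H2-D1* ran from 0.05 (without knockdown 1) to 0.26 (without knockdown 2). *B2m* (ENSMUSG00000060802.9, chr2:121977957-121983594, forward strand) had 886, 1429, 1102 and 908 reads in scrambled 1, scrambled 2, knockdown 1 and knockdown 2. Its normalized counts were 928 and 1203 in scrambled against 1099 and 1062 in knockdown, so the groups overlapped and both knockdown libraries lay inside the scrambled range. The log2 fold change was 0.02 (95% interval -0.29 to 0.32, adjusted p = 0.961), with log2 ratios of 0.24 in batch 1 and -0.18 in batch 2, and with 1 library left out it ran from -0.16 to 0.21.

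The share of *H2-K1* in the reads of both heavy chain genes does not depend on the normalization between libraries. It was 24.3% of 304 reads in scrambled 1 (exact 95% binomial interval 19.6 to 29.6) and 30.4% of 424 reads in scrambled 2 (26.1 to 35.0). In knockdown 1 it was 12.5% of 336 reads (9.16 to 16.5) and in knockdown 2 it was 13.5% of 251 reads (9.57 to 18.4). The intervals of the groups did not overlap, and they cover counting error only. A two-sided exact permutation test over the 4 libraries gave p = 0.333, the smallest p that 2 against 2 libraries allow. Both heavy chains together made up 25.5% and 22.9% of the reads on heavy chains and *B2m* in the scrambled libraries against 23.4% and 21.7% in the knockdown libraries, and these ranges overlapped (exact permutation p = 0.667). C2C12 cells derive from C3H mice, whose class I alleles differ from those of the reference genome, and the heavy chain genes resemble each other, so the division of reads between them is uncertain, and whether this bears on the shift was not tested.

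**Figure D2:**
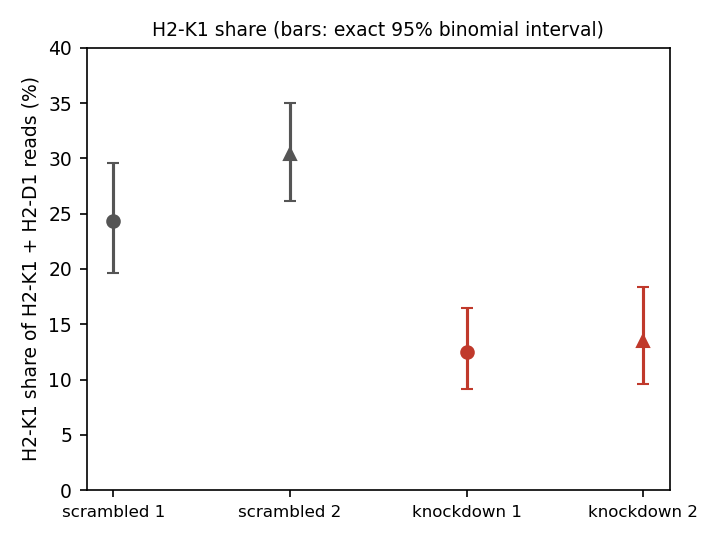
*H2-K1* reads as a percentage of *H2-K1* and *H2-D1* reads in each library, with exact 95% binomial intervals as bars. Scrambled libraries sit at 24.3% and 30.4%, above the knockdown shares of 12.5% and 13.5%, with no overlap of the bars between groups.

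Of the tested genes around the heavy chains, 1 was called, and it was higher. Of 23 genes in the class I list, which includes *H2-K1*, *H2-D1*, *B2m* and *Tap1*, 18 had reads and 12 were tested, of which 1 was called higher (*Tapbp*) and 1 lower (*H2-K1*), beside 2.33% and 3.22% of all tested genes. The median log2 fold change of the 12 was -0.12, beside -0.001 for all tested genes, and 4 were above 0 and 8 below. *Tapbp*, which encodes tapasin (ENSMUSG00000024308.16, chr17:34134873-34148267, forward strand), had 37 and 55 reads in the scrambled libraries against 100 and 65 in the knockdown libraries. These are 38.8 and 46.3 against 99.7 and 76.0 normalized counts, and the groups did not overlap. The log2 fold change of *Tapbp* was 1.04 (SE 0.22, adjusted p = 0.00759 by edgeR), and without knockdown 1 it was 0.83 (adjusted p = 0.118). Of the exon bases of *Tapbp*, 20.9% are shared with *Zbtb22* on the same strand, and 45.4% with *Gm19412* or *Zbtb22* on either strand. How the counting divided such reads is uncertain. The adjusted p of *Tapbp* was 0.0526 by the DESeq2 likelihood-ratio test with a local fit and 0.217 and 0.248 with the parametric fits.

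*Tap1* (ENSMUSG00000037321.18, chr17:34405996-34416199, forward strand) had 1 read in each scrambled library, 0 in knockdown 1 and 2 in knockdown 2. It was too low for a test, as was its partner *Tap2* with 2 reads in all. Of the interferon-inducible proteasome subunits, *Psmb8* and *Psmb9* had 0 and 2 reads over the 4 libraries, and the class I transactivator *Nlrc5* had none. These genes had too few reads for a test, so a small difference in them would not have been seen. The inducible subunit *Psmb10* was covered, with 69, 78, 54 and 41 reads, and was not called (log2 fold change -0.43, adjusted p = 0.254 by edgeR), although its groups did not overlap. The chaperones and the disulfide isomerase that assist folding were better covered. *Calr* had 892 to 1343 reads and a log2 fold change of -0.16 (adjusted p = 0.567 by edgeR), and *Pdia3* had 990 to 1294 reads and a log2 fold change of 0.27 (adjusted p = 0.26). *Calr* was at -0.02 without scrambled 1, at -0.29 without scrambled 2 and at -0.07 with chromosome medians removed. Class II presentation, which serves specialised immune cells, was read only from *H2-DMa* (3, 2, 5 and 0 reads), and the other 6 of its 7 listed genes, among them *Cd74* and *Ciita*, had no read in any library.

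**Figure D3:**
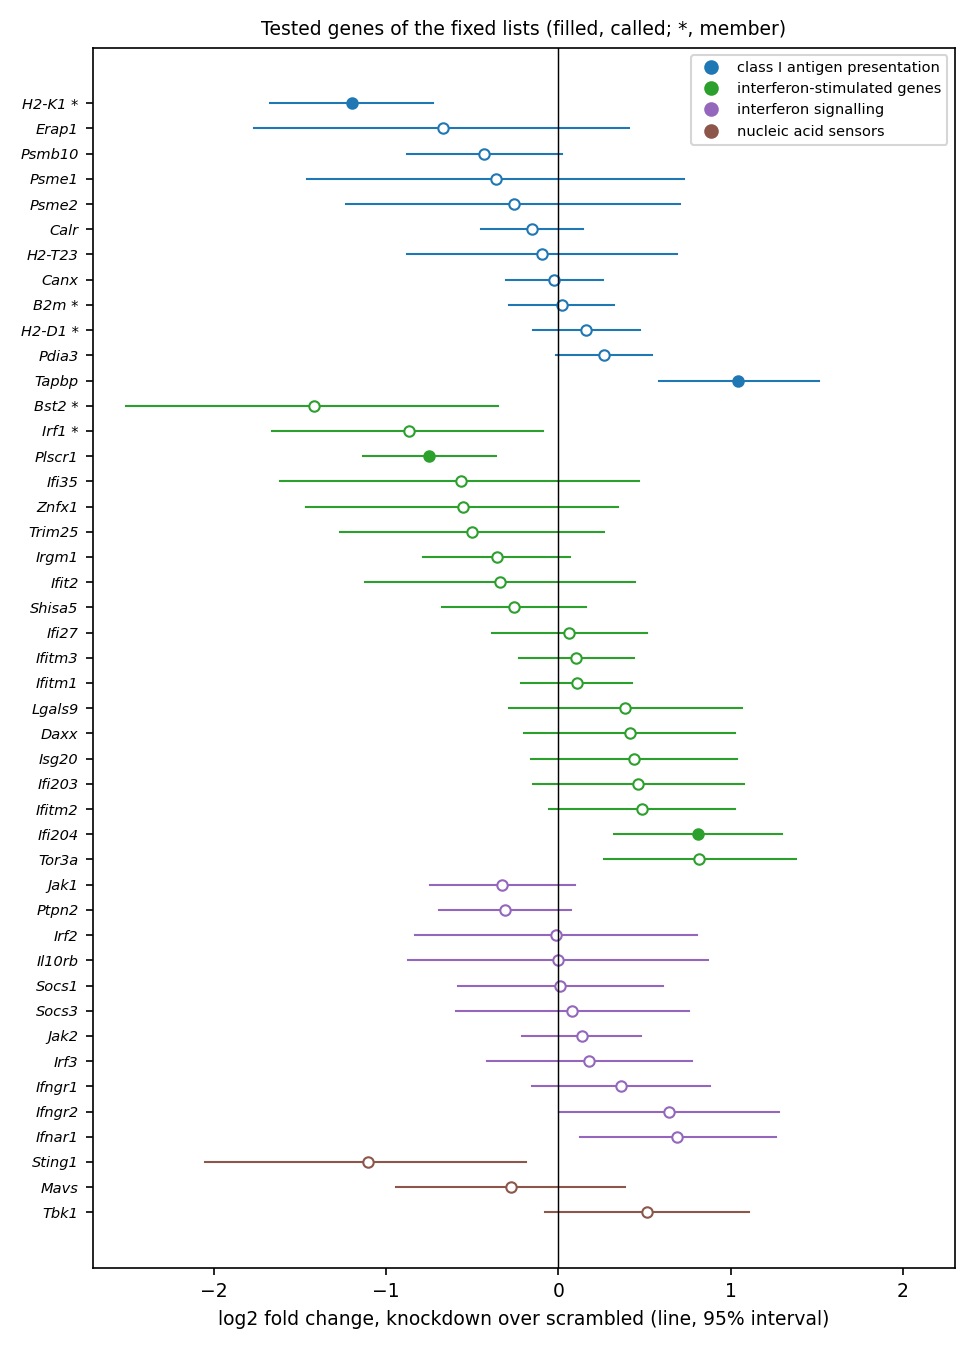
Log2 fold change of knockdown over scrambled (x axis) for the tested genes of 4 lists, with edgeR 95% intervals as lines, filled points for called genes and asterisks for members. The class I genes run from *H2-K1* at -1.20 to *Tapbp* at 1.04, and the interferon-stimulated genes lie on both sides of 0, from *Bst2* at -1.42 to *Tor3a* at 0.82.

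*Irf1*, a transcription factor induced by interferon gamma that drives class I genes, was at 0.556 times its scrambled level in the knockdown line but was not called. *Irf1* (ENSMUSG00000018899.18, chr11:53660812-53669200, forward strand) had 20 and 31 reads in the scrambled libraries against 11 and 13 in the knockdown libraries, or 21.0 and 26.1 normalized counts against 10.97 and 15.2. Both knockdown libraries were below both scrambled libraries. The log2 fold change was -0.87 (SE 0.38, 95% interval -1.66 to -0.09), with an adjusted p of 0.178 by edgeR and 0.108 to 0.996 over the 12 other settings, and the log2 ratio was -0.93 in batch 1 and -0.78 in batch 2. Genes on the opposite strand, *Gm12216* and *Gm17334*, cover 44.6% of the exon bases of *Irf1*, and the strand setting of the counting is not given in the sources used here.

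The receptors, kinases and transcription factors of the interferon pathway were considered next. Of 19 interferon signalling genes, *Irf1* included, 18 had reads and 12 were tested, with a median log2 fold change of 0.05. No gene of the list was called by edgeR or in any DESeq2 fit, beside 5.55% of all tested genes, and before adjustment 2 had a p under 0.05 in the higher direction (*Ifnar1* and *Ifngr2*) and 1 in the lower (*Irf1*), a share of the 12 near the 21.8% of all tested genes. *Ifnar1*, a subunit of the type I interferon receptor, had 24 and 44 reads in the scrambled libraries against 56 and 39 in the knockdown libraries (log2 fold change 0.69, adjusted p = 0.14 by edgeR). *Ifngr2*, a subunit of the interferon gamma receptor, had 20, 43, 54 and 31 reads (0.64, adjusted p = 0.228), and its scrambled 2 and knockdown 2 values were nearly equal at 36.2 and 36.3 normalized counts. Without single libraries *Ifnar1* ran from 0.46 (without scrambled 1) to 1.01 (without scrambled 2), and *Ifngr2* was at 0.32 without knockdown 1, 0.33 without scrambled 1 and 1.11 without scrambled 2. Both receptor genes lie on chromosome 16, whose median log2 fold change was 0.30, and with that median removed *Ifnar1* was at 0.39 and *Ifngr2* at 0.34. The kinase genes *Jak1* (-0.33) and *Jak2* (0.13) and the phosphatase gene *Ptpn2* (-0.31) had adjusted p-values of 0.343 to 0.693. *Jak1* was at -0.105 without scrambled 1 and at -0.546 without scrambled 2, and *Jak2* was at 0.08 without scrambled 2. With chromosome medians removed, *Jak2* was at 0.36 and *Ptpn2* at -0.03. The transcription factor genes *Irf9*, with 0 to 8 reads per library, and *Irf7*, with 0 to 2, were too low for a test. None of the 10 interferon genes in the list, among them *Ifnb1*, *Ifna4*, *Ifng* and *Ifnl3*, had a read in any library.

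Among the antiviral effector genes, *Ifit1*, *Ifit3* and *Isg15* were at or near 0 in both lines. *Ifit1* (ENSMUSG00000034459.9, chr19:34618271-34632174, forward strand), which encodes a protein that binds foreign RNA ends, had 0 of 3064434 scrambled reads and 0 of 2604061 knockdown reads. A count of 0 allows up to 0.979 CPM in scrambled and 1.15 CPM in knockdown, at 3 counts over each group. This limit covers the sampling of counted reads only, and not reads that the counting may have lost. *Ifit3* (ENSMUSG00000074896.4, chr19:34560899-34566443, forward strand), the partner of *Ifit1*, had 1 read, in knockdown 1, and its near-identical copy *Ifit3b* had none, so reads that fit both copies may have been set aside. *Isg15* (ENSMUSG00000035692.8, chr4:156283883-156285303, reverse strand), a ubiquitin-like protein attached to others during infection, had 1 read, in scrambled 1, and 31.1% of its exon bases lie opposite *Gm46878*. With so few reads these genes were not tested, and a small difference between the lines would not have been seen. The related gene *Ifit2* was covered, with 18, 23, 13 and 15 reads, and was not called (log2 fold change -0.34, adjusted p = 0.643 by edgeR).

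*Bst2* encodes the surface protein tetherin, which holds budding virus particles on the cell. In the edgeR fit reported here, it had the log2 fold change furthest from 0 of the tested members and the least even replicates. *H2-K1* was further from 0 than *Bst2* with chromosome medians removed (-1.39 against -1.34), without scrambled 2 (-0.93 against -0.65) and without knockdown 2 (-1.17 against -0.85). *Bst2* (ENSMUSG00000046718.9, chr8:71986895-71990114, reverse strand) had 12 and 35 reads in the scrambled libraries against 12 and 3 in the knockdown libraries. The normalized counts were 12.6 and 29.5 against 11.96 and 3.51, so the groups were apart only by the narrow gap between scrambled 1 and knockdown 1. Its log2 fold change was -1.42 (SE 0.52, 95% interval -2.51 to -0.35, adjusted p = 0.108 by edgeR), and the log2 ratio was -0.07 in batch 1 and -3.07 in batch 2. Leaving out scrambled 2 gave -0.65 and leaving out knockdown 2 gave -0.85, whereas leaving out knockdown 1 gave -2.58. Leaving out scrambled 1 gave -1.86. *Bst2* was called without a filter on low counts (adjusted p = 0.0216 by edgeR).

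**Figure D4:**
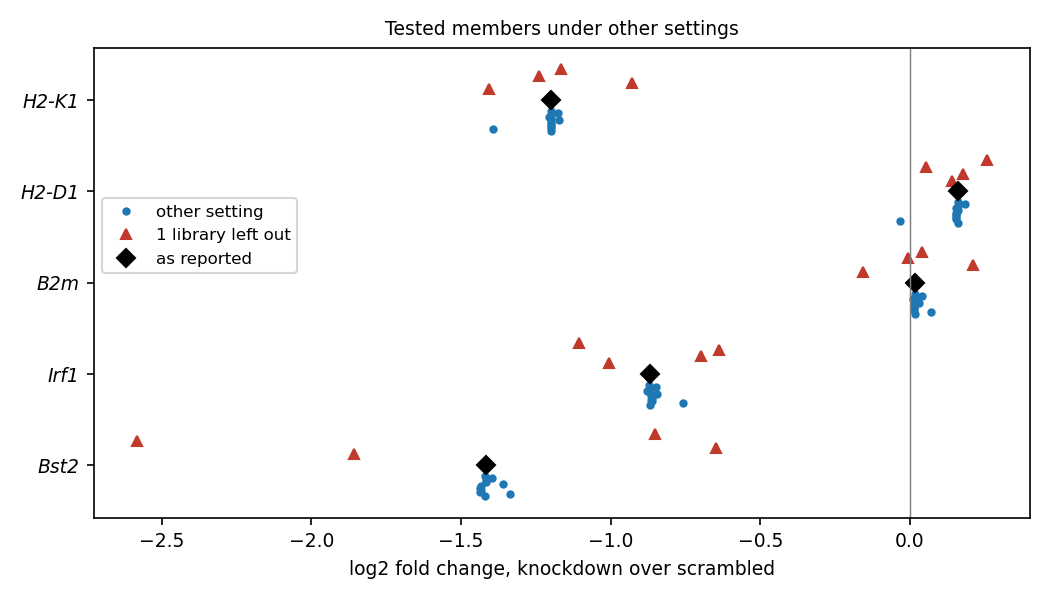
Log2 fold change of knockdown over scrambled (x axis) of the 5 tested members as reported (diamonds), under the other settings of the processing (circles) and with 1 library left out (triangles). *H2-K1* and *Irf1* stay below 0 at each point, *H2-D1* and *B2m* cross 0, and *Bst2* runs from -2.58 to -0.65 as single libraries are left out.

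The genes whose pattern over the 4 libraries was closest to that of *Bst2*, by the distance between centred log2 normalized counts over 8669 genes, were *Thsd7a* (distance 0.48), *Cd248* (0.538), *Krt13* (0.539), *Cd276* (0.593) and *Actn3* (0.623). *Cd248* had 14, 29, 12 and 2 reads and *Cd276* had 24, 62, 26 and 10 in scrambled 1, scrambled 2, knockdown 1 and knockdown 2. In each of them, as in *Bst2*, scrambled 2 had the highest and knockdown 2 the lowest count. They were selected for this likeness, so it is no separate result.

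Of the 5 tested members, 1 was called lower and 0 higher, beside 3.22% and 2.33% of all tested genes, and 3 had an unadjusted p under 0.05 (*H2-K1*, *Irf1* and *Bst2*, all lower), beside 21.8%. The groups did not overlap in 4 of the 5, which stands beside 52.4% of all tested genes. Summed over the 9 members, the libraries held 882 and 1145 CPM in scrambled against 1064 and 957 CPM in knockdown, so both knockdown sums lay inside the scrambled range. Most of each sum was *B2m*, with 638.5, 852, 802 and 739 CPM. In bulk RNA, fewer cells that express a gene and less of its RNA per cell cannot be told apart.

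Over a wider list of 67 interferon-stimulated genes, which includes *Tap1*, *Irf1*, *Ifit1*, *Ifit3*, *Isg15* and *Bst2*, no common direction was seen. Reads were found on 42 of them and 25 had none in any library, among the latter *Mx1*, *Mx2*, *Rsad2*, *Usp18*, *Oas1a*, *Oas2*, *Oas3*, *Cmpk2*, *Ifi44*, *Cxcl10* and *Gbp2*. Of the 19 tested, 10 were above and 9 below 0, with a median log2 fold change of 0.06 beside -0.001 for all tested genes. Before adjustment, 2 higher and 3 lower of the 19 had a p under 0.05, a share near the 21.8% of all tested genes. In each direction 1 gene was called, beside 5.55% of all tested genes called in either. The list summed to 1491 and 1453 CPM in scrambled against 1728 and 1349 CPM in knockdown, so the groups overlapped.

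*Plscr1*, a phospholipid scramblase with antiviral activity, was called lower. It had 180 and 246 reads in the scrambled libraries against 95 and 122 in the knockdown libraries (log2 fold change -0.75, SE 0.18, adjusted p = 0.0201 by edgeR). The median of its chromosome 9 was -0.37, and with chromosome medians removed *Plscr1* was at -0.38 (adjusted p = 0.342). Without knockdown 1 it was at -0.47 (adjusted p = 0.24). *Ifi204*, a member of the nucleic acid-binding p200 family whose near copies can share reads, was called higher with 34 and 45 reads in the scrambled libraries against 63 and 57 in the knockdown libraries (log2 fold change 0.81, SE 0.23, adjusted p = 0.0446). The direction of *Ifi204* held with each library left out (0.77 to 0.85), but no such fit called it (adjusted p = 0.115 to 0.123). Neither *Plscr1* nor *Ifi204* was called in any of the 4 DESeq2 fits or with chromosome medians removed. *Tor3a*, an interferon-inducible ATPase of the torsin family, had 26, 34, 53 and 39 reads and was not called (log2 fold change 0.82, adjusted p = 0.0743). The best covered genes of the list were the membrane proteins that block virus entry, *Ifitm3* with 1107, 1112, 1297 and 817 reads (0.10, adjusted p = 0.753) and *Ifitm1* with 249, 350, 332 and 228 (0.11, adjusted p = 0.737). The sign of both turned without knockdown 1 (-0.13 and -0.06), and that of *Ifitm3* also without scrambled 2 (-0.05). Genes on the opposite strand cover 60.9% of the exon bases of *Ifitm3*.

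**Figure D5:**
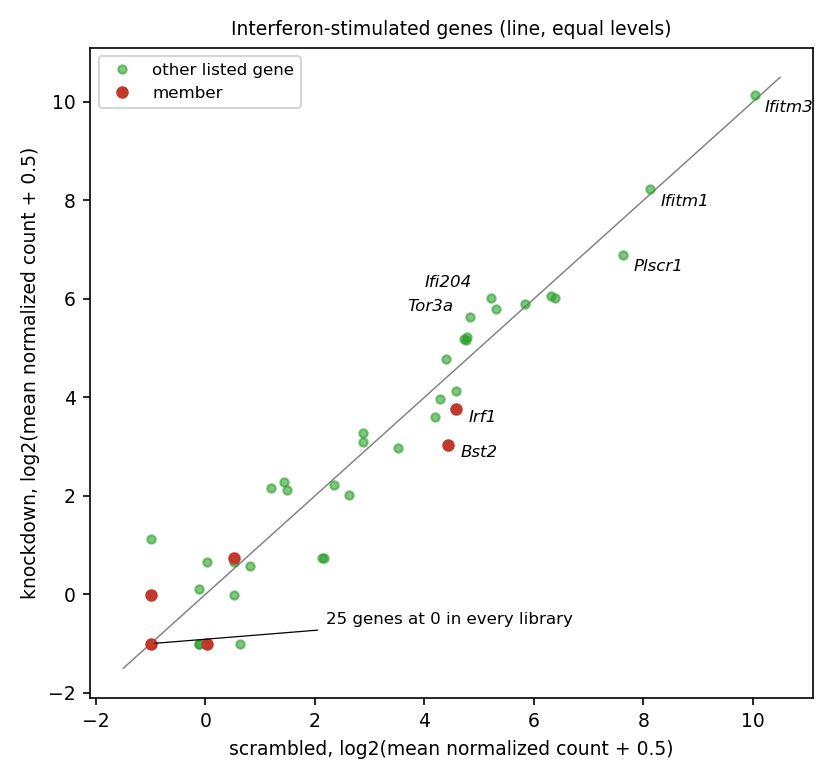
Mean normalized count in knockdown (y axis) against scrambled (x axis), both as log2 of the mean plus 0.5, for the 67 interferon-stimulated genes, with members in red and a line at equal levels. *Irf1*, *Bst2* and *Plscr1* lie below the line and *Ifi204* and *Tor3a* above it, and 25 genes share the point at 0 reads.

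Of 12 nucleic acid sensors and their adaptors, which detect foreign RNA or DNA and start the production of interferon, 11 had reads, 3 were tested and none was called by edgeR or DESeq2, with 1 (*Sting1*) at an unadjusted p under 0.05. These 3 genes are too few to set against the 5.55% and 21.8% of all tested genes. *Sting1*, the adaptor of DNA sensing, had 16 and 19 reads in the scrambled libraries against 9 and 5 in the knockdown libraries (log2 fold change -1.11, SE 0.45, adjusted p = 0.144 by edgeR), and the groups did not overlap. The kinase gene *Tbk1* (0.51, adjusted p = 0.302) and the adaptor gene *Mavs* (-0.28, adjusted p = 0.66) had intervals that included 0, and with 1 library left out they ran from 0.11 (without knockdown 2) to 0.86 (without knockdown 1) and from -0.49 (without knockdown 1) to -0.11 (without knockdown 2). *Rigi*, a sensor of viral RNA, had 2 to 7 reads per library, and *Ifih1* had 1 and 3 reads in scrambled 1 and 2 and 0 in knockdown. The machinery that processes short hairpin RNA was covered in both lines, with 7 of 8 genes tested and a median log2 fold change of 0.07. None was called by edgeR or DESeq2, and 1 (*Xpo5*) had an unadjusted p under 0.05, beside 5.55% and 21.8% of all tested genes. *Xpo5*, which exports hairpins from the nucleus, had 102, 120, 127 and 122 reads (log2 fold change 0.37, adjusted p = 0.2), *Ago2*, which cuts their targets, had 93, 137, 85 and 101 (-0.09, adjusted p = 0.84), and *Tarbp2*, a partner of Dicer, had 62, 73, 56 and 52 (-0.12, adjusted p = 0.797). With chromosome medians removed, *Xpo5* was at 0.18 and *Tarbp2* at -0.01. *Tarbp2* ran from -0.18 (without knockdown 2) to -0.05 (without knockdown 1) with 1 library left out. The sign of *Ago2* turned without scrambled 2 (0.04), without knockdown 1 (0.14) and with chromosome medians removed (0.02).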

How the data were processed

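The authors basecalled direct RNA reads with guppy, mapped them to GRCm39 (minimap2 2.17, SAMtools) and counted them per gene (HTSeq 0.9.1, per the labels). The deposited files hold raw counts for 56748 gene IDs, and 56017 were matched to GENCODE vM39 for symbols and positions. The annotation release and strand setting of the counting are not given in the sources used here. Reads assigned to no gene were left out. Counted reads were 1387523 and 1676911 (scrambled 1 and 2) and 1374637 and 1229424 (knockdown 1 and 2), so 0 reads in a library allow 1.79 to 2.44 CPM at 3 counts. Reads lost in the counting are not covered by this limit.

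Groups were compared with the edgeR 4.0.16 quasi-likelihood test (R 4.3.3, limma 3.58.1) after TMM normalization and filterByExpr, with Benjamini-Hochberg adjustment over 8670 genes. Calls used the thresholds of the study's methods (adjusted p 0.05, log2 fold change 0.5, mean normalized count 10). The code was tested on simulated data. DESeq2 1.42.0 in 4 configurations, other factors and filters, a robust fit, removed chromosome medians, mitochondrial genes left out, the replicate block and left-out libraries were alternatives. The batches pair same-numbered libraries, whose deviations had r = -0.0182 over 8670 genes. Promoter windows came from RefSeq (GRCm38.p6).

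Named genes are the members, *Hnrnpl*, and from each list those called, those with an unadjusted p under 0.05, the 3 best covered and those at 0 that define it, besides the 5 nearest to *Bst2* in pattern. Other genes named within lists were picked with their values known. The members and lists were chosen with earlier results of these data known.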

Additional observations from a re-analysis of the deposited data

How the results depend on the processing

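Against 481 genes called, DESeq2 called 228 (Wald, local fit), 115 (Wald, parametric), 222 (likelihood-ratio, local) and 112 (likelihood-ratio, parametric), removal of chromosome medians left 285, and left-out libraries gave 194 (without knockdown 1) to 433. Of the members 1 was called, 2 without a filter, 0 with the parametric fits, and 1 to 2 with a library left out. The class I list had 2 calls, 0 with both parametric fits, 1 with the likelihood-ratio test and local fit, and 1 to 2 with a library left out. The interferon-stimulated list had 2 calls, 3 without a filter, 0 in each DESeq2 fit and with chromosome medians removed, and 0 (without knockdown 1) to 2 with a library left out. *Hnrnpl* was at -0.78 with both parametric fits (adjusted p = 0.0567 and 0.067) and at -1.03 to -0.48 with a library left out. The cause of these differences was not tested. The replicate block pairs the libraries by replicate number. With it, 484 genes and 1 member were called, and the class I and interferon-stimulated lists had 2 calls each. The block changed no call given in the report other than that of *Des*, where the adjusted p was 0.0526. Depth limits the genes with few reads: 4 of the 9 members could not be tested, and *Bst2* was not tested with at least 10 counts in every library.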
